A study of Arabidopsis thaliana with 18 samples.

Results

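Late embryogenesis abundant (LEA) proteins are small, hydrophilic and largely unfolded proteins that plants accumulate as seeds dry, and that also appear in vegetative tissue under drought or cold. They are known for keeping other proteins and membranes intact while water is lost. In Arabidopsis seeds their genes are switched on late in maturation by the hormone abscisic acid, through the transcription factors ABI3 and ABI5, and transcripts made in the seed are lost as the seedling becomes established. Transcripts of 10 such genes were followed here, of 33602 genes in the count table. The members were fixed by gene name: *EM1* and *EM6*, which encode group 1 (LEA_5) proteins, and 8 genes of group 3 (LEA_4) proteins, namely *ECP63*, *LEA76*, AT2G42560, AT1G72100, AT4G36600, AT3G17520, AT5G44310 and AT3G53040. They were chosen by gene family with earlier results from the same libraries known, among them low levels of seed maturation genes in the triple mutant *bdrs* against WT. Which of these values decided the choice was not recorded, so the log2 fold changes in *bdrs* against WT are taken as used for it, and no test is given for the members in that comparison.

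Messenger RNA of whole 8-day-old seedlings of the Col-0 ecotype was sequenced in 6 groups of 3 libraries, 18 in all. WT was the wild type; *bdr1* (SALK_142108C), *bdr2* (CS852350) and *bdr3* (SALK_059905) were single mutants, each represented by 1 insertion line according to the methods; *bdrs* was the triple mutant; and *fpa* was the *fpa-7* allele. Seeds of every group were kept cold at 4 °C in the dark for 4 days on MS plates, and seedlings then grew at 21 °C for 8 days with daily light for 16 h and darkness for 8 h. BDR1, BDR2 and BDR3 are BORDER proteins, nuclear proteins that act on RNA polymerase II at the ends of genes, and FPA is an RNA-binding protein that affects where transcripts end and when plants flower. The comparisons ask how loss of each protein, or of the 3 BORDER proteins together, changed transcript levels.

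Library totals ranged from 11566600 to 21084793 counts, and the 10 LEA genes together took 0.00275% to 0.0252% of them. Levels are given as CPM, read counts brought to the same library total with TMM scaling factors. *BDR1* fell from a mean of 29.3 CPM in WT to 7.28 in *bdr1* and 3.47 in *bdrs*, *BDR2* from 15.5 to 6.61 in *bdr2* and 7.74 in *bdrs*, and *FPA* from 40.0 to 23.5 in *fpa*. *BDR3* was at 8.06 CPM in WT, 6.46 in *bdr3* and 7.29 in *bdrs*, with overlapping libraries, so its level does not check the *bdr3* label. Ribosomal RNA took 1.01% to 1.78% of the counts in *bdrs* 1, *fpa* 3 and *bdr1* 3, against 0.0531% to 0.659% in the other 15 libraries. The 5 leaf markers and the 5 root markers were detected in every group.

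All 10 genes lie on the 5 nuclear chromosomes and code for protein (TAIR10.1 annotation of RefSeq). *EM1* is AT3G51810 (chr3:19214722-19215831, plus strand), *EM6* is AT2G40170 (chr2:16779552-16780368, minus strand), *ECP63* is AT2G36640 on chromosome 2 and *LEA76* is AT3G15670 (chr3:5309886-5310988, minus strand). AT2G42560 is at chr2:17714638-17716912, AT3G17520 at chr3:5999174-6000447, AT5G44310 at chr5:17847781-17849536 and AT3G53040 at chr3:19664629-19666497, all on the minus strand, and AT1G72100 at chr1:27127170-27128978 and AT4G36600 at chr4:17263564-17265172 on the plus strand. AT3G17520 has 1 exon, AT3G53040 has 3 and the longest transcript of each of the others has 2. The exonic length per gene ran from 720 bases in *EM6* to 2174 bases in AT2G42560.

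The sequence just before the gene start is shown for 4 members because the shared feature of the group that does not come from expression lies there. ACGTG is the core of the abscisic acid response element, to which ABI5 and related bZIP factors bind, and CATGCA is the RY element bound by the B3 domain of ABI3 relatives. Each sequence below is the 250 bases upstream of the annotated start, read 5′ to 3′ on the strand of the gene (TAIR10.1), and capitals mark matches to ACGTG or CATGCA on either strand, so that CACGT is ACGTG and TGCATG is CATGCA on the opposite strand. *EM1* (chr3:19214472-19214721, plus strand) and *EM6* (chr2:16780369-16780618, minus strand) are the group 1 pair, which stood at opposite ends of the list in *fpa*. AT3G53040 (chr3:19666498-19666747, minus strand) held an RY match. AT4G36600 (chr4:17263314-17263563, plus strand) was the member called lower in *bdr1*.
EM1: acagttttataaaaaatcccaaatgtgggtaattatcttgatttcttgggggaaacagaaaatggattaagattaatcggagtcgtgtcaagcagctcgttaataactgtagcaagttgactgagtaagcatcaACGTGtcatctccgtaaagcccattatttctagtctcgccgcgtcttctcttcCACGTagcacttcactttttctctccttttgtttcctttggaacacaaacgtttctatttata
EM6: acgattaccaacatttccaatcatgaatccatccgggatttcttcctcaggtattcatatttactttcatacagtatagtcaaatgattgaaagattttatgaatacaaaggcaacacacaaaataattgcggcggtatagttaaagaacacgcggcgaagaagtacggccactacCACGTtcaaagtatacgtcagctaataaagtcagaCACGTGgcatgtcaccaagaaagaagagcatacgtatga
AT3G53040: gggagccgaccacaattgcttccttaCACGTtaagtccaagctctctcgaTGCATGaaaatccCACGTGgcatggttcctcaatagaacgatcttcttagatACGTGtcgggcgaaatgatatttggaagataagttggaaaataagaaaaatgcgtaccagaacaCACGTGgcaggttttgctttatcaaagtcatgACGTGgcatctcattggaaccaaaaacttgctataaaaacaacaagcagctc
AT4G36600: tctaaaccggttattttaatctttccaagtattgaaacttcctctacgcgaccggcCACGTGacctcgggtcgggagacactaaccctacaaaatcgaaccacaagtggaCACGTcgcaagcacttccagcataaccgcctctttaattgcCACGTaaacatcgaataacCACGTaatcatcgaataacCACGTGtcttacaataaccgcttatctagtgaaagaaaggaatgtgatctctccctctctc

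The windows of 9 members were searched. Matches to ACGTG, with both strands searched and overlapping matches such as those in CACGTG counted once, were found upstream of 9 of these 9 genes, against 22.9% of the 27437 protein-coding genes for which such a window was read. Each of the 9 held at least 2 of them, against 4.99% of all windows, and the number ran from 2 in *EM1*, *EM6*, AT3G17520 and AT5G44310 to 5 in AT4G36600 and AT3G53040. CATGCA was present upstream of 1 of the 9 genes, AT3G53040, against 8.43% of all windows. A match describes letters in a window and is not a measured binding site.

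**Figure D1:**
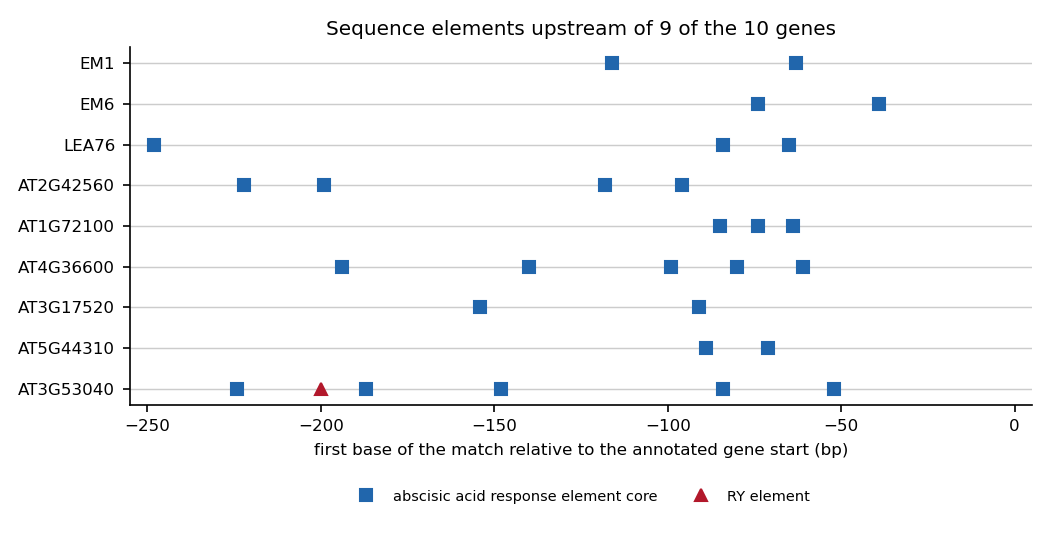
Positions of ACGTG (blue squares) and CATGCA (red triangles) matches in the 250 bp before the annotated start of 9 of the 10 LEA genes, with the distance of the first matched base from the start in bp on the x axis. Every gene plotted has 2 or more squares, and the triangle belongs to AT3G53040.

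In 8-day-old WT seedlings all 10 genes were still detected, and all 10 passed the filter on low counts. Per length of annotated exon (RPKM), *LEA76* had the highest WT level, 33.9 ± 3.24 RPKM (SD, n = 3), followed by AT3G17520 at 24.6 ± 1.41 and *EM6* at 21.6 ± 5.44. The spreads of AT3G17520 and *EM6* overlapped. *EM1* (10.7 ± 1.87) and AT3G53040 (10.3 ± 1.19) did not differ beyond their spread, nor did AT4G36600 (8.30 ± 0.377) and AT1G72100 (7.40 ± 1.13), nor AT2G42560 (6.62 ± 0.943) and *ECP63* (6.43 ± 0.943). AT5G44310 was lowest, at 2.46 ± 0.391 RPKM.

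By group means the order was shared by the 10 genes: *fpa* lowest, then *bdrs* and *bdr1*, then WT, with *bdr2* and *bdr3* at the top. The summed level of the 10 genes was 155 to 168 CPM in the WT libraries, 90.7 to 98.0 in *bdr1*, 186 to 241 in *bdr2*, 176 to 241 in *bdr3*, 66.7 to 74.9 in *bdrs* and 25.2 to 38.6 in *fpa*. The libraries of *bdr2* and *bdr3* overlapped each other, and every other pair of groups was separate in this sum. In bulk RNA of whole seedlings, fewer cells that hold a transcript and less of it per cell cannot be told apart.

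**Figure D2:**
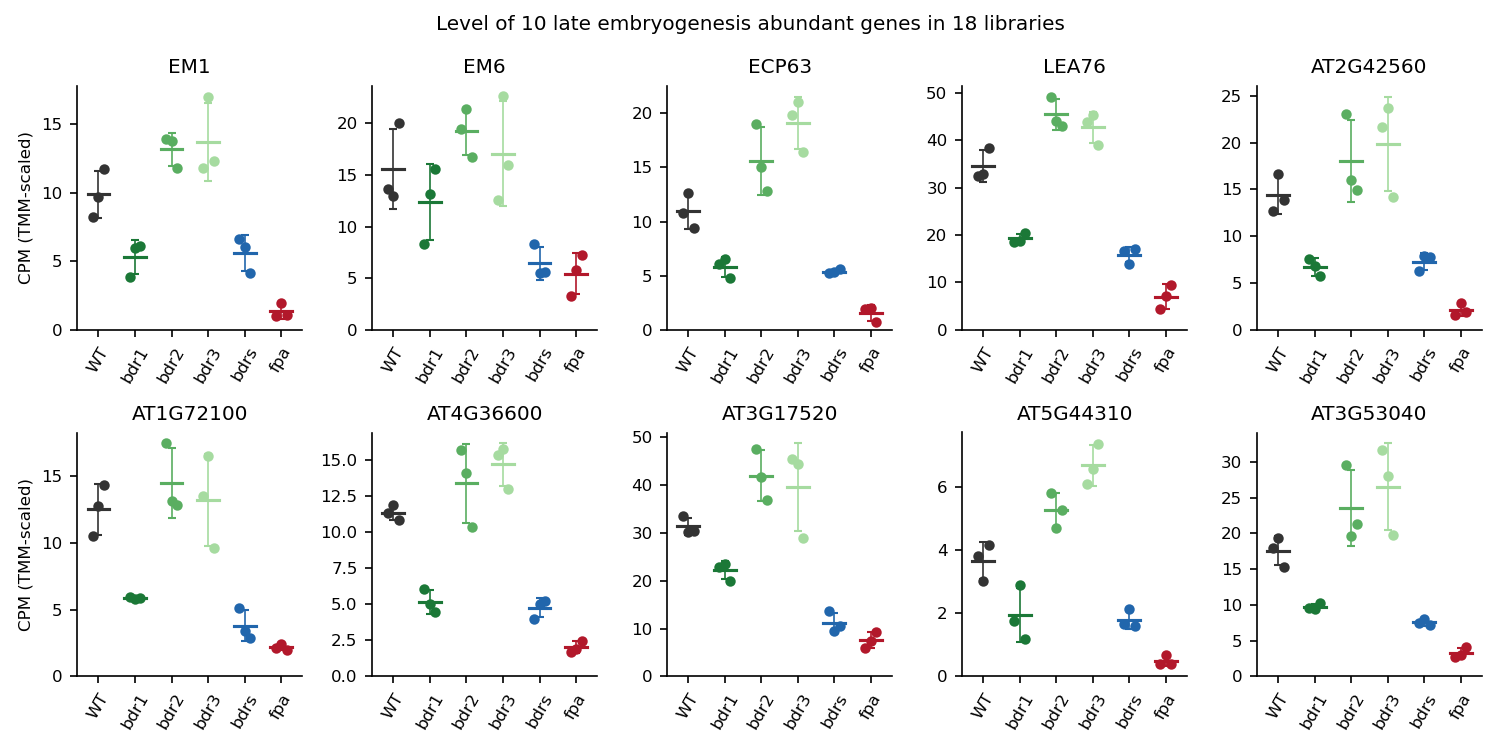
Level of each of the 10 LEA genes (CPM on scaled library sizes, y axis from 0) in the 6 groups, with 1 point per library, the mean as a horizontal line and the SD as error bars. The *fpa* libraries lie below all WT libraries for all 10 genes, and the *bdr1* libraries do so for 9, with *EM6* the exception.

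In *fpa* the LEA transcripts were strongly reduced. All 10 genes fell against WT, with log2 fold changes from −1.54 (*EM6*, 2.91 times lower) to −2.84 (*EM1* and AT5G44310, 7.16 and 7.17 times lower) and a median of −2.50 against 0.01 over all tested genes. All of the 10 were called, at edgeR adjusted p between 1.97e-07 and 0.00293. Of all 20143 tested genes, 3.12% (629) were called lower in *fpa*, and 340 without WT 2, 416 without WT 3, 358 without *fpa* 1 and 379 without *fpa* 2, with all 10 members called in each of these fits. The *fpa* libraries lay below the WT libraries for all 10 members, which was so for 14.7% of all tested genes.

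*EM1*, whose product is a group 1 LEA protein of dry seeds, measured 8.25, 9.68 and 11.7 CPM in the 3 WT libraries and 0.99, 1.97 and 1.09 in those of *fpa*. The 2 groups were well apart, and the log2 fold change was −2.84 ± 0.28 (SE, edgeR adjusted p = 1.94e-06). *EM6*, the other gene of that group, measured 13.7, 13.0 and 20.1 CPM in WT and 3.28, 5.85 and 7.23 in *fpa*. The groups were separate here too, but *fpa* 3 came closer to the lowest WT library, and the fall of 1.54 ± 0.29 on the log2 scale was the smallest of the 10 (edgeR adjusted p = 0.00293).

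Among the group 3 genes, *LEA76* measured 32.4, 32.9 and 38.4 CPM in WT and 4.39, 7.14 and 9.51 in *fpa* (log2 fold change −2.33 ± 0.19, edgeR adjusted p = 2.82e-07). It was the most abundant member per length in WT, and its *fpa* libraries were all far below those of WT. *ECP63*, named for an embryogenic cell protein of carrot, measured 10.8, 12.6 and 9.39 CPM in WT and 1.93, 2.03 and 0.69 in *fpa* (−2.74 ± 0.25). AT3G53040 measured 17.9, 19.4 and 15.4 CPM in WT and 2.69, 3.02 and 4.06 in *fpa* (−2.45 ± 0.21). Both were separate from WT in every library. The other group 3 genes, AT2G42560, AT1G72100, AT4G36600, AT3G17520 and AT5G44310, fell with log2 fold changes of −2.07 to −2.84, AT3G17520 the least and AT5G44310 the most. AT5G44310, the member with the fewest reads, was left at 0.41, 0.68 and 0.40 CPM.

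WT libraries also enter the *bdrs* comparison in which low levels were already known. *fpa* was also compared with the mean of the 3 single mutants, which uses neither WT nor *bdrs* libraries. The members were chosen with earlier results from the same libraries known, so these calls cannot be taken as independent of that choice either. All 10 genes were lower in *fpa*, by 1.57 (*EM6*, edgeR adjusted p = 5.13e-04) to 3.02 (AT5G44310, edgeR adjusted p = 5.83e-07) on the log2 scale, with a median of −2.43. Over all tested genes, 6.14% (1237) were called lower in this contrast, and 728, 476 and 591 without *fpa* 1, *fpa* 2 and *fpa* 3, with the 10 members called in each. Without the 3 libraries rich in ribosomal RNA, the 10 genes were still called in *fpa* against WT, with log2 fold changes of −2.74 to −1.77.

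**Figure D3:**
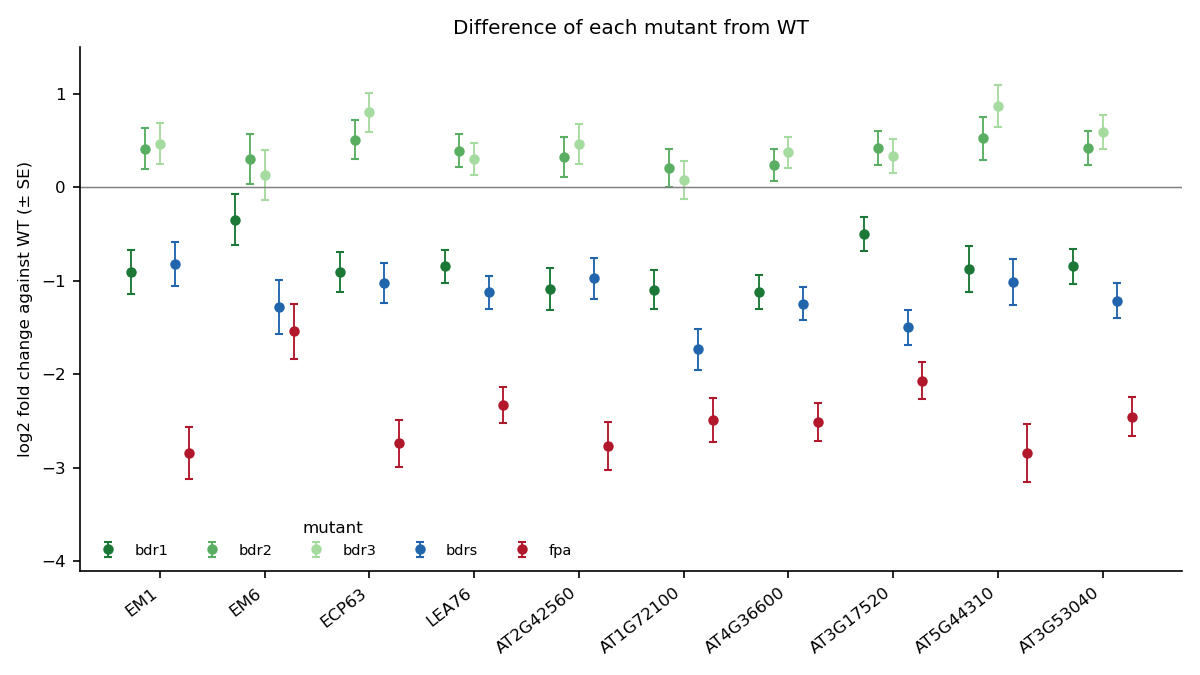
Log2 fold change of each of the 10 LEA genes in each mutant against WT, with the standard error of the edgeR fit as error bars and 0 marked by a line. *fpa* lies lowest for each gene (−2.84 to −1.54), *bdrs* and *bdr1* lie below 0, and *bdr2* and *bdr3* lie above 0 for all 10.

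In *bdr1* the same genes were lower by a smaller amount, and in this contrast few of them passed the test. Log2 fold changes against WT ran from −1.12 to −0.35 with a median of −0.89, against 0.02 over all genes. The *bdr1* libraries lay below all WT libraries for 9 of the 10 genes, which was so for 5.24% of all tested genes. *EM6* overlapped: it measured 8.32, 13.2 and 15.5 CPM in *bdr1*, and the interval of its difference, −0.92 to 0.23 on the log2 scale, includes 0. At an unadjusted p under 0.05 edgeR gave 9 of the 10, against 5.78% of all genes.

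Only AT4G36600 was called lower in *bdr1* after adjustment, where 0.0199% of all tested genes were called lower, and its call was already known when the members were chosen. These were 4 genes, and edgeR called 8 lower without *bdrs* 1, 9 without *fpa* 1 and 7 without *fpa* 3. It measured 11.3, 11.9 and 10.9 CPM in WT and 6.07, 5.00 and 4.46 in *bdr1*, and its groups were separate (−1.12 ± 0.18, edgeR adjusted p = 0.0202). The call was lost in edgeR fits without WT 1 (adjusted p = 0.0821), WT 2 (0.150), WT 3 (0.0752), *bdr1* 2 (0.253) or *bdr1* 3 (0.198), while the log2 fold change stayed between −1.15 and −1.03 in those fits. It was also lost without the 3 libraries rich in ribosomal RNA (edgeR adjusted p = 0.134) or with WT and *bdr1* alone in the fit (0.0855). DESeq2 called 6 of the 10 lower in *bdr1*: AT4G36600, AT1G72100, AT2G42560, *ECP63*, *LEA76* and AT3G53040. Of all 20143 tested genes, DESeq2 called 25 lower in this comparison.

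AT1G72100 showed the tightest *bdr1* libraries, 5.93, 5.77 and 5.84 CPM against 10.5, 12.7 and 14.3 in WT, 2.14 times lower, with an edgeR adjusted p of 0.105. *LEA76* measured 18.6, 18.8 and 20.4 CPM in *bdr1*, 1.79 times lower than WT (edgeR adjusted p = 0.155). These values were separate from WT in every library and did not pass the adjusted threshold in this fit. Leaving out *bdrs* 1 brought AT1G72100 to an edgeR adjusted p of 0.0449, and leaving out *fpa* 1 brought *LEA76* to 0.0207.

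In *bdr2* and *bdr3* the difference from WT was in the other direction for each of the 10 genes, and none was called by edgeR or by DESeq2 (edgeR called 0.00496% of all tested genes higher in *bdr2* and 0% in *bdr3*). Log2 fold changes were 0.21 to 0.52 in *bdr2* (median 0.40) and 0.07 to 0.87 in *bdr3* (median 0.42). At an unadjusted p under 0.05 edgeR gave 5 genes in *bdr2*, against 0.794% of all genes, and 6 in *bdr3*, against 4.43%. All *bdr2* libraries were above all WT libraries for 6 of the 10 genes (2.2% of all tested genes), and so were all *bdr3* libraries for 6 (4.34%).

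The largest difference in *bdr3* was that of AT5G44310, which measured 3.81, 3.03 and 4.16 CPM in WT, 5.82, 4.72 and 5.28 in *bdr2* and 6.10, 6.59 and 7.38 in *bdr3*. Both mutants were above WT in every library, by 0.52 ± 0.23 and 0.87 ± 0.23 on the log2 scale, with 95% intervals of 0.04 to 1.00 and 0.39 to 1.34 before any adjustment over genes. *ECP63* measured 19.0, 15.0 and 12.8 CPM in *bdr2* and 19.8, 21.0 and 16.4 in *bdr3*, again above every WT library. AT1G72100 and *EM6* stood at the other end, with 0.07 ± 0.20 and 0.13 ± 0.27 in *bdr3* and libraries on both sides of WT. In *bdr3*, the value of AT1G72100 became −0.04 without WT 1 and −0.10 without *bdr3* 2, and that of *EM6* became −0.11 without *bdr3* 2. The libraries of *bdr2* and *bdr3* overlapped each other for 9 of the 10 genes, and in the other, AT5G44310, those of *bdr3* were higher (2.32% of all tested genes).

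A direct contrast of *bdr1* with the mean of *bdr2* and *bdr3*, which uses no WT and no *bdrs* library, called 9 of the 10 genes lower in *bdr1*. Earlier results from the same libraries were known when the members were chosen, so these calls cannot be taken as independent of that choice. Over all tested genes 50, or 0.248%, were called lower in this contrast, among them the 9 members and 3 other LEA genes. That total rested on single libraries: edgeR called 12 genes lower without *bdr1* 2, 13 without *bdr1* 3, 26 without *bdr2* 1, 31 without *bdr2* 3, 27 without *bdr3* 2, 33 without WT 2 and 181 without *bdr1* 1, while the members called were 7, 8, 8, 9, 8, 9 and 9 in these fits. Log2 fold changes ran from −1.57 ± 0.22 in AT5G44310 (edgeR adjusted p = 0.00165) and −1.56 ± 0.19 in *ECP63* (edgeR adjusted p = 4.27e-04) to −0.88 ± 0.16 in AT3G17520 (edgeR adjusted p = 0.0213). *EM6* was the gene not called (−0.56 ± 0.24, edgeR adjusted p = 0.343). AT3G53040 illustrates the separation, with 9.61, 9.47 and 10.2 CPM in *bdr1*, 29.5, 19.6 and 21.3 in *bdr2* and 31.7, 28.0 and 19.8 in *bdr3*: its highest *bdr1* library was below its lowest library of either other mutant. The call of AT3G17520 was lost in edgeR fits without *bdr1* 2 (adjusted p = 0.107), *bdr1* 3 (0.206), *bdr2* 1 (0.0620) or *bdr3* 2 (0.0531), without the 3 libraries rich in ribosomal RNA (0.0792) or with only these 3 groups (0.0654), and that of AT1G72100 without *bdr1* 2 (0.0512).

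The triple mutant *bdrs* is described without a test. Each of the 10 genes was lower than WT, by 0.82 (*EM1*) to 1.73 (AT1G72100) on the log2 scale with a median of −1.17, and the *bdrs* libraries lay below the WT libraries for all 10, where this held for 9.29% of all tested genes. The members are taken as chosen on these differences, so neither the median nor the count beside that share is evidence about them as a list. *EM1* measured 6.64, 6.04 and 4.12 CPM in *bdrs* and 3.87, 5.98 and 6.09 in *bdr1*, so the triple mutant and the single mutant overlapped. AT1G72100 measured 5.11, 3.40 and 2.88 CPM in *bdrs*, below every *bdr1* library. Over the list, *bdrs* lay below *bdr1* without overlap in 5 genes (9.7% of all tested genes) and overlapped it in the other 5. *fpa* lay below *bdrs* without overlap in 9 genes (18.1% of all tested genes) and overlapped it in *EM6*, which measured 8.32, 5.47 and 5.59 CPM in *bdrs*.

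The differences of the 3 single mutants from WT, added per gene on the log2 scale, had a median of 0.03, between −0.81 in AT1G72100 and 0.52 in AT5G44310. The median in *bdrs* was −1.17. These contrasts share the WT libraries, and the *bdrs* differences are those taken as used for the choice of members. Both medians are thus given side by side without a test, and whether the effects add up cannot be read from them.

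With the differences between groups included, the 10 genes varied together across the libraries. Pairwise correlations of their log2 CPM over 18 libraries ran from 0.75 to 0.98, with a median of 0.94 over 45 pairs. After removal of the group means the correlations ran from −0.57 to 0.71, with a median of 0.32. The libraries share depth and scaling, and among them are the WT and *bdrs* libraries whose difference is taken as used for the choice. These values are therefore descriptive. Within a library, the log2 ratio of *EM6* to the other members was 0.18 on average in WT (−0.09 to 0.54) and 1.19 in *fpa* (0.75 to 1.70), so that *EM6* kept a larger part of its WT level in *fpa* than the other members did on average. In *bdr1* the ratio of *EM6* was 0.74 (0.22 to 1.23), which overlapped WT. The ratio of AT1G72100 to the others was −0.15 in WT (−0.34 to −0.00) and −0.76 in *bdrs* (−1.06 to −0.35), where the highest library lay close to the lowest of WT. In *bdr3* the ratio of AT1G72100 was −0.57 (−0.79 to −0.40), also below the WT libraries. The ratios of these 2 genes were singled out after their values were seen.

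The rest of the LEA families moved in part in the same way. Of 41 other LEA genes, 30 were tested, and in *fpa* edgeR called 14 lower and 0 higher, against 3.12% of all tested genes called lower. By sign, 22 were lower and 8 higher, up to 0.46, with a median log2 fold change of −1.12. At an unadjusted p under 0.05 edgeR gave 17 lower and 0 higher, against 21.0% of all tested genes in either direction. DESeq2 called 14 lower and 0 higher, with *XERO1* in place of AT2G18340, and 805 of all 20143 tested genes lower. Leaving out 1 library at a time left 11 to 15 called lower, and leaving out the 3 libraries rich in ribosomal RNA left 12. All 4 tested LEA_4 genes that are no members were among the 14: *LEA7* (−1.43 ± 0.24), AT2G18340 (−2.38), AT3G02480 (−1.66) and AT4G21020 (−2.33 ± 0.23, edgeR adjusted p = 2.29e-06). The 3 LEA_1 genes *LEA4-1*, *LEA4-2* and *LEA4-5* fell by 1.79, 1.68 and 1.22, and the 3 tested seed maturation protein genes *RAB28*, AT3G22490 and *ECP31* by 1.61, 2.78 and 1.96 on the log2 scale. Some of these calls rested on single libraries in edgeR fits: AT2G18340 was lost without *fpa* 1 (adjusted p = 0.0556) or *fpa* 3 (0.0525), AT3G22490 without *fpa* 1 (0.0578) and *RAB28* without *fpa* 1 (0.0767), *fpa* 3 (0.0641) or WT 2 (0.0995).

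Dehydrins were divided: of 9 tested, AT2G21490 (−1.54), AT4G39130 (−2.92) and the abscisic acid-responsive *RAB18* (−1.57, from 150 ± 33.3 to 50.3 ± 13.5 CPM) were called lower in *fpa*. The cold- and drought-induced dehydrins *COR47* and *ERD14*, which vegetative tissue also expresses, were at 145 ± 34.6 and 254 ± 47.6 CPM in WT and 117 ± 13.1 and 273 ± 21.8 in *fpa*, and neither was called. *M17*, a gene of the small AtM family of seeds, fell by 2.84 ± 0.35, from 93.0 to 12.9 CPM. No tested gene of the LEA_2 and LEA_3 families was called, and *SAG21*, a LEA_3 gene of senescence and oxidative stress, measured 136 ± 28.3 CPM in WT and 188 ± 57.0 in *fpa*.

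In *bdrs*, 10 of the 30 were called lower and 0 higher, with a median of −0.86. By sign, 21 were lower and 9 higher, up to 1.03, with 1 of the 9 at an unadjusted edgeR p under 0.05. Over all tested genes 2.78%, or 559, were called lower, and 355 without *bdrs* 2. The lists were chosen with low levels of seed maturation genes in this comparison known. Calls of list genes in it, here and below, are thus not independent of that choice. Of the 10 called in *bdrs*, 9 were also called in *fpa*, which is 9 of the 14 called there, and both comparisons share the WT libraries. The other was *LTI30*, a cold-induced dehydrin, with 25.5 ± 3.48 CPM in WT, 12.9 ± 3.00 in *bdrs* and 21.7 ± 5.01 in *fpa*, and its edgeR call was lost without *bdrs* 2 (adjusted p = 0.103), WT 1 (0.0584) or WT 3 (0.0526). Leaving out 1 library at a time left 7 to 11 called in *bdrs*. None of the 30 was called in *bdr1*, *bdr2* or *bdr3* against WT by edgeR or DESeq2, although 12 in *bdr1* were lower and 1 in *bdr2* and 2 in *bdr3* were higher at an unadjusted edgeR p under 0.05. Of all tested genes, 5.78% in *bdr1*, 0.794% in *bdr2* and 4.43% in *bdr3* reached that p in either direction. In *bdr1* against the mean of *bdr2* and *bdr3*, 3 were called lower, *LEA7*, AT4G21020 and AT2G21490, and without *bdr1* 2 or *bdr1* 3 only AT2G21490 was left of these (edgeR adjusted p of *LEA7* 0.212 and 0.262, of AT4G21020 0.107 and 0.112).

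**Figure D4:**
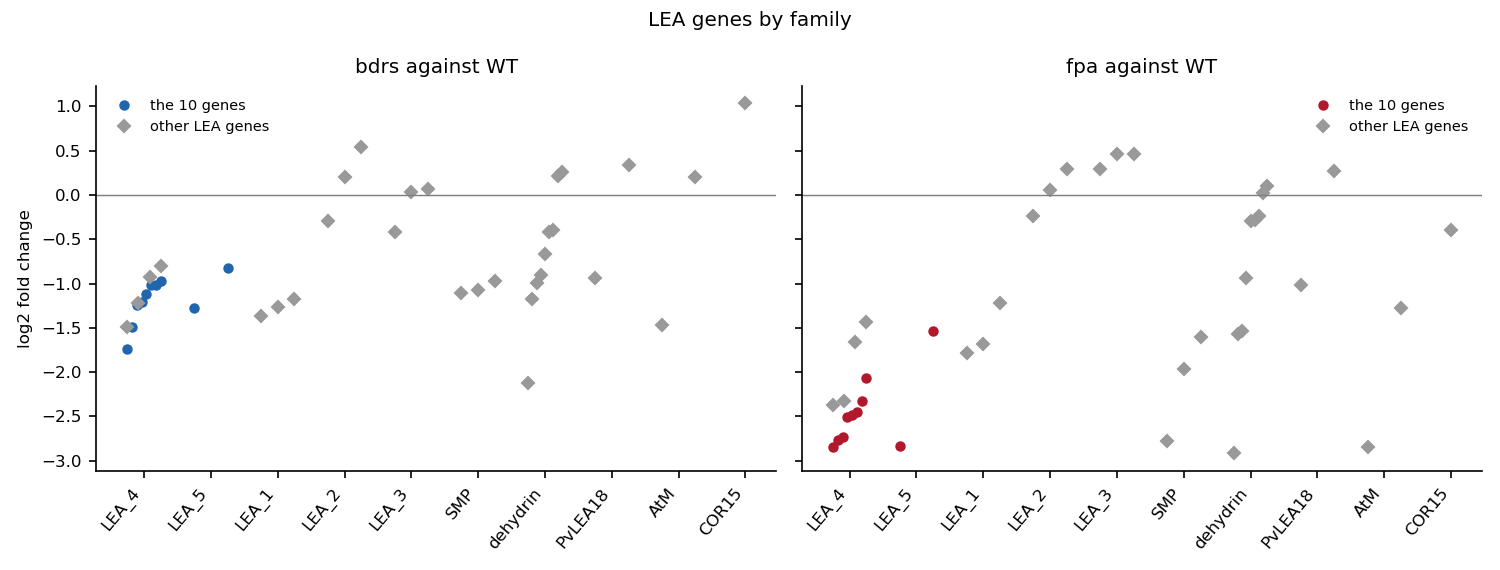
Log2 fold change against WT of the 10 LEA genes (coloured circles) and the 30 other tested LEA genes (grey diamonds), by protein family, in *bdrs* (left) and *fpa* (right). In *fpa* the LEA_4, LEA_1 and SMP (seed maturation protein) families lie below −1, while LEA_2 and LEA_3 genes lie between −0.24 and 0.46.

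Of 14 regulators of seed maturation, 9 were tested. *ABI3*, which with abscisic acid activates LEA genes in seeds, was at 6.73 ± 2.07 CPM in WT and 1.08 ± 0.497 in *fpa* (−2.69 ± 0.31, edgeR adjusted p = 1.22e-05). *ABI5*, a bZIP factor that binds abscisic acid response elements and is known to act on *EM1* and *EM6*, fell by 1.82 ± 0.28 in *fpa*, from 3.58 to 0.992 CPM, and *ABI4* by 2.05 ± 0.54 (edgeR adjusted p = 0.0343). The *ABI4* call was lost without *fpa* 1 (edgeR adjusted p = 0.128), *fpa* 2 (0.164) or WT 3 (0.180). In *bdrs*, *ABI3* was lower (1.98 ± 0.437 CPM, −1.78 ± 0.27) and so was *AREB3*, another bZIP factor, at 21.5 ± 2.33 CPM in WT, 7.90 ± 0.261 in *bdrs* and 20.6 ± 6.30 in *fpa*. *ABI5* was at 1.97 ± 0.241 CPM in *bdrs* and was not called there by edgeR (adjusted p = 0.0549), while DESeq2 called it lower (adjusted p = 0.0345). In *bdr1*, *ABI3* was at 3.67 ± 0.288 and *ABI5* at 1.84 ± 0.380 CPM, and neither was called against WT. In *bdr1* against the mean of *bdr2* and *bdr3*, the contrast in which 9 members were called, these were the 2 regulators called lower: *ABI3* (8.12 ± 1.93 CPM in *bdr2* and 7.58 ± 0.548 in *bdr3*, −1.10 ± 0.23, edgeR adjusted p = 0.0471) and *ABI5* (3.88 ± 0.516 and 4.06 ± 0.00773, −1.12 ± 0.23, edgeR adjusted p = 0.0380). Both calls rested on single libraries in edgeR fits and were lost without *bdr1* 2 (adjusted p of *ABI3* and *ABI5* 0.314 and 0.317), *bdr1* 3 (0.208 and 0.119), *bdr2* 1 (0.124 and 0.0666), *bdr2* 3 (0.102 and 0.0946), any *bdr3* library, WT 2 or *bdrs* 3, that of *ABI3* also without *bdrs* 2 or *fpa* 2, and both without the 3 libraries rich in ribosomal RNA (0.108 and 0.102). The part of any of these in the levels of the LEA genes was not tested.

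Seed storage and oil body genes, which mark seed tissue, mostly moved with the members. Of 15 such genes 14 were tested, and edgeR called 11 lower in *fpa* and 7 in *bdrs*, with 0 called higher in either. With 1 library at a time left out, 8 to 12 and 5 to 7 were called lower. Over all tested genes 3.12% and 2.78% were called lower in these comparisons. By sign, 14 were lower in *fpa*, while in *bdrs* 12 were lower and 2 higher, up to 1.56 on the log2 scale. In *bdrs*, 1 of the 2 was higher at an unadjusted edgeR p under 0.05. In *bdr1* against WT, 0 of the 14 were called by edgeR or by DESeq2, with 13 lower and 1 higher by sign. The cruciferin storage protein gene *CRA1* was at 285 ± 62.5 CPM in WT and 27.3 ± 8.60 in *fpa* (−3.38 ± 0.32), and the oleosin gene *OLEO1* fell by 3.00 in *fpa*. Summed over the 15 genes, WT libraries held 503 to 847 CPM, *bdr1* 301 to 372, *bdr2* 689 to 942, *bdr3* 431 to 850, *bdrs* 128 to 270 and *fpa* 56.0 to 86.8. In these sums *bdr1*, *bdrs* and *fpa* were thus below WT without overlap, as for the LEA genes, whereas *bdr2* and *bdr3* overlapped WT. The part of this in the LEA levels was not tested. The sums of 5 leaf genes and of 5 root genes overlapped between all groups. Of these 10 genes, in *fpa* against WT, only *EXPA7*, an expansin gene of root hairs, was called (higher by 0.73 ± 0.17, edgeR adjusted p = 0.0179), and its call was lost without *fpa* 3 (edgeR adjusted p = 0.0817) or WT 2 (0.0979). In *bdr1* against the mean of *bdr2* and *bdr3*, all 14 tested seed genes had negative log2 fold changes (median −0.94, against −1.35 for the members) and 2 were called lower, the oleosin gene *OLEO5* (−1.22 ± 0.25, edgeR adjusted p = 0.0435) and the storage protein gene *PAP85* (−1.47 ± 0.27, edgeR adjusted p = 0.0207). DESeq2 called 5 of the 14 lower, and 123 of all 20143 tested genes lower. Leaving out 1 library at a time left 0 to 2 of the 14 in edgeR, with 0 without *bdr1* 2, *bdr1* 3 or *bdr2* 1. The 5 root genes had a median of −0.57 in this contrast, with the cell wall protein gene *PRP3* called lower (−1.04 ± 0.21, edgeR adjusted p = 0.0380; lost without, among others, *bdr1* 2 at 0.123 and *bdr1* 3 at 0.264, while 3 root genes were called without *bdr1* 1), and the 5 leaf genes had a median of 0.08 with 0 called by edgeR or DESeq2. The part of these genes in the *bdr1* difference of the members was not tested.

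**Figure D5:**
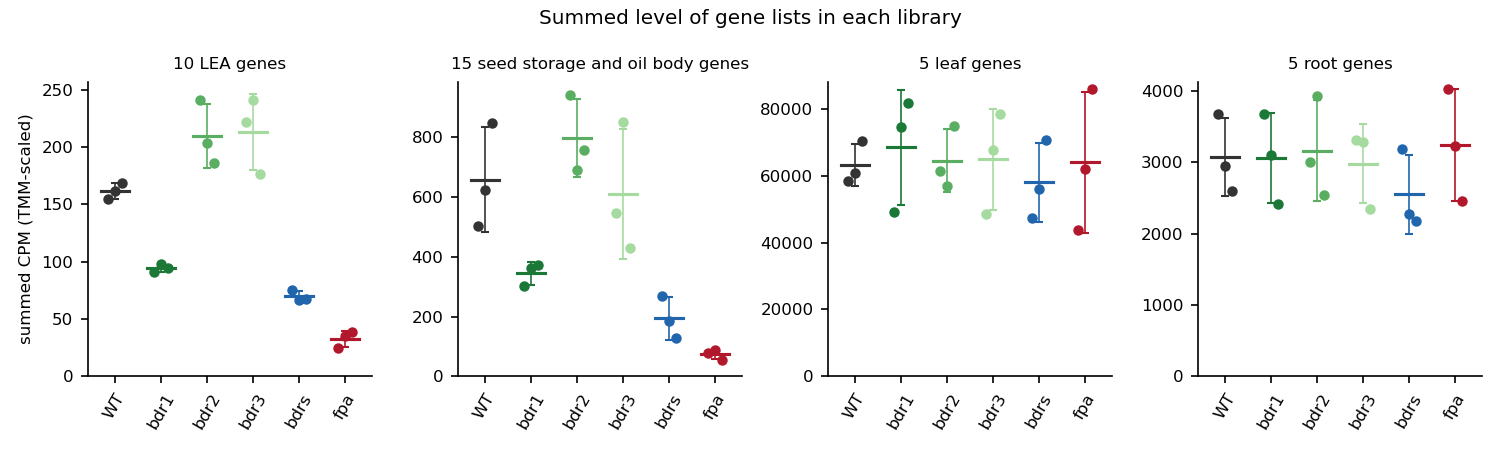
Summed level (CPM on scaled library sizes, each y axis from 0) of the 10 LEA genes, 15 seed storage and oil body genes, 5 leaf genes and 5 root genes, with 1 point per library, the mean as a line and the SD as error bars. The first 2 panels fall in *bdr1*, *bdrs* and *fpa*, and in the leaf and root panels the groups overlap.

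Outside the members, the 5 genes most like the mean standardized LEA profile over the 18 libraries, of 18374 ranked, were AT1G54870, AT1G65090, *MLS*, AT3G21380 and AT2G28490, with Pearson r of 0.97 to 0.98. The ranking left out the members only, so genes of the other lists are among those ranked. *MLS* encodes malate synthase of the glyoxylate cycle, by which seedlings turn stored oil into sugar, and it measured 63.5 ± 12.7 CPM in WT, 29.1 ± 3.96 in *bdr1*, 29.9 ± 7.40 in *bdrs* and 15.6 ± 4.19 in *fpa*. AT1G54870 measured 25.9 ± 2.15 CPM in WT and 4.01 ± 1.22 in *fpa*. Over all ranked genes the 95th percentile of r was 0.62, and 66 genes exceeded 0.9.

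BORDER proteins are known for protecting genes that lie close behind another gene on the same strand, so the neighbours of the 10 genes were examined. The nearest upstream gene was on the same strand for 3 of the 10, and for 2 of these it ended within 500 bp: *TBL39* lies 419 bp before AT2G42560 and AT1G72090 lies 219 bp before AT1G72100. The other, upstream of *ECP63*, is a noncoding RNA gene that is absent from the counts. Upstream distances ran from 219 to 3828 bp with a median of 1250.5. Of the 20 upstream and downstream neighbours 11 were tested, and 0 were called in any mutant against WT by edgeR or by DESeq2. In edgeR, 3 of 55 tests had an unadjusted p under 0.05. The smallest edgeR adjusted p, 0.127, was that of AT1G72090 in *bdrs*, with 16.0 ± 1.83 CPM in WT and 22.4 ± 2.08 in *bdrs*. AT1G72100, with the closest tandem neighbour, had the largest log2 difference of the 10 in *bdrs*, while AT2G42560 at −0.97 was among the smaller ones.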

How the data were processed

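Messenger RNA libraries of 18 seedling samples were made with a stranded kit, sequenced in pairs, aligned by the authors with STAR 2.5.2b and counted per TAIR10 gene with featureCounts, per the labels and the methods. The deposited table holds raw counts of reads per gene, not normalized. Whether reads were assigned by strand is not given in the sources used here, and reads of an antisense partner could be included. Only uniquely placed reads were kept, which matters for genes with related sequence such as *EM1* and *EM6*. The authors' normalized table was not used.

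Groups and replicate numbers came from sample titles. Counts were tested with edgeR 4.0.16 in R 4.3.3 (TMM scaling, filterByExpr, quasi-likelihood F test, all 18 libraries in 1 fit with 12 residual degrees of freedom, Benjamini-Hochberg adjustment over 20143 tested genes of 25596 with a read), and calls required an adjusted p under 0.05. The common biological coefficient of variation was 17.3%. Errors of log2 fold changes are standard errors of the fit, and other errors are SD of 3 libraries. DESeq2 1.42.0, other scalings and filters, a replicate block, fits to the compared groups alone, and fits without single libraries were alternatives. The procedure was also run on simulated counts with known changes in *fpa*, drawn with the spread estimated by the same fit. Effects of replicate number or ribosomal RNA were not simulated, so how the fit handles them was not tested. Per-length levels (RPKM) used exon lengths of the TAIR10.1 annotation, which is newer than the gene models counted. The upstream sequence of 1 member is not reported here.

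The members and gene lists were chosen with earlier results of these data known, so their p-values are not independent evidence about LEA genes as a list. Named genes were all members, list genes called against WT, the neighbours of members and the 5 genes with the highest correlation to the members with a mean of at least 1 CPM; other examples, among them *COR47*, *ERD14*, *SAG21*, *LTI30* and genes not called, were added after their values were seen. Replicates were separate libraries; whether their seedlings grew apart is not stated, so p-values measure the spread between libraries. No pair of libraries of a group differed by less than sampling noise (chi-square divided by its degrees of freedom, smallest value 13.2). Whether replicate numbers pair libraries across groups was checked by correlating deviations from group means. In *fpa* against WT the same-numbered pairs correlated at 0.240, 0.104 and 0.396. Pairs with other numbers ran from −0.427 (WT 3 with *fpa* 1) to 0.202 (WT 2 with *fpa* 1), and the labels give no shared origin. The main fit uses no pairing, so its p-values ignore any that exists. The replicate block, run as an alternative, changed no call of a member there and called 888 of all tested genes lower, against 629 in the main fit. In the other mutants against WT at least 1 same-numbered pair was below 0.1 (lowest −0.25). The summed leaf genes were highest, and the summed root genes lowest, in the library numbered 3 in 6 of 6 groups.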

Additional observations from a re-analysis of the deposited data

How the results depend on the processing

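The 10 LEA genes were called lower in *fpa* against WT and in *fpa* against the single mutants in each of the 26 alternative fits, 18 of which left out 1 library; over these fits their log2 fold changes against WT ran from −3.24 to −1.25 and their largest edgeR or DESeq2 adjusted p was 0.0292. No member was called in *bdr2* or *bdr3* in any of them. In *bdr1* against WT the count of 1 became 6 with DESeq2, 2 without the filter on low counts, 0 without the 3 libraries rich in ribosomal RNA, 0 with only the compared groups in the fit, and 0 to 2 without single libraries; adjusted p of AT4G36600 over all fits ran from 5.76e-05 to 0.253. In *bdr1* against the mean of *bdr2* and *bdr3*, 7 to 9 members were called without single libraries and 8 to 9 otherwise. The median in *bdrs* was −1.18 to −1.09 without single libraries, the upper end without WT 3, and −1.17 to −1.15 otherwise. Small positive differences in *bdr3* turned negative for AT1G72100 (−0.04 without WT 1, −0.10 without *bdr3* 2, in a range up to 0.27 without *bdr3* 3) and *EM6* (−0.11 without *bdr3* 2, in a range up to 0.35 without WT 3). The cause of these changes was not tested. With the replicate block, 10 members were called in *fpa*, 1 in *bdr1* and 9 in *bdr1* against the mean of *bdr2* and *bdr3*, and the *bdrs* median was −1.16. With the block, list genes gained calls and lost none: *XERO1* and *SESA3* in *fpa*, *XERO1*, *RAB18* and *ABI5* in *bdrs*, and *LEA4-1*, *RAB18* and *ABI4* in *bdr1* against the mean of *bdr2* and *bdr3*. Over all genes, the 50 called lower in that contrast became 123 with DESeq2, 76 with the block, 33 with only the compared groups and 20 without the 3 libraries rich in ribosomal RNA, the 1237 lower in *fpa* against the single mutants became 693 without those 3, and the 4 lower in *bdr1* against WT became 25 with DESeq2 and 10 without the filter on low counts. Fits to list genes without single libraries, with DESeq2 or with the block were added after the data were seen.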
